A study of Arabidopsis thaliana with 4 samples.

Results

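Calmodulin-like (CML) genes encode small calcium sensors of plants. The 7 genes described here were chosen by name: each has a symbol of the letters CML followed by digits, after the platform annotation was updated to RefSeq, and a probe set that names it alone. They are CML23, CML30, CML37, CML38, CML41, CML42 and CML43, out of 13350 genes that a probe set names alone. Each has 1 probe set, so the rule of taking the probe set with the highest mean decided nothing here. The RefSeq table holds 8 genes with such a symbol, and the eighth, CML11, was not analysed here. Other genes of the family carry another symbol; AT1G76640, which has CML39 among its synonyms, is given beside the 7 and is not counted with them.

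Calcium ions act as an internal messenger in plant cells: touch, wounding, cold, low oxygen or a pathogen each raise calcium in the cytosol. Calmodulin and the CML proteins bind that calcium through EF-hand motifs, change shape and then bind other proteins. Transcripts of several CML genes, CML37 and CML38 among them, are known to accumulate quickly after stimulation of leaves, and CML42 has a known part in the branching of trichomes, the hairs of the leaf surface.

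The study measured 4 Arabidopsis thaliana seedling samples on a gene expression array, 1 sample per genotype, to find transcripts enriched in trichomes. They were the wild type and 3 mutants without trichomes, gl1, ttg1 and gl3 egl3, which lack a MYB factor, a WD40 protein and a pair of bHLH factors. The design text writes the second gene of the double mutant differently from the sample title, and the title was followed. The growth temperature was 22 °C in days of 16 h light and 8 h dark. Plants were 20 days old per the labels, which give no age for gl1. The labels restrict the material to green tissue in every sample but gl3 egl3. The Landsberg erecta accession is named for ttg1 and gl3 egl3 alone, so accession and genotype cannot be told apart in those mutants. Alleles are not given, and the mutations act in the whole plant. In such bulk tissue, fewer cells of a type and less RNA per cell cannot be told apart.

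Values are log2 intensities, quantile normalized between the 4 arrays, so a difference of 1 is 2-fold. A probe set counted as tested where its highest value reached 6.26, the median of all values, and 12601 of 22746 did. Of the 7 CML genes, 6 were tested and CML43 was not. CML23 and CML37 passed through the wild-type array alone, so the passing of those genes already required a high wild-type value. CML37, at 6.30 in wild type, lay just inside the limit. CML41 passed through the ttg1 and gl3 egl3 arrays alone. The wild-type and gl3 egl3 arrays stood apart from the other arrays by at least 2-fold at 112 and 576 tested probe sets, gl1 and ttg1 at 21 and 25. RCA, a gene of green leaf tissue, was at 12.19 to 12.30 in all 4 arrays. Of the root markers, PYK10 was at 10.91 to 11.34 and EXPA7 at 3.26 to 3.39, and the guard cell lineage genes SPCH and MUTE stayed below the level limit in every array.

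Among the 7 genes, 4 had values at least 2-fold below wild type in 1 or more mutants: CML23, CML37, CML38 and CML42. None was 2-fold above wild type in any mutant, where 7.48% of tested probe sets were in 1 or more. These 4 were also the genes with their highest value in wild type; in the deposited values, without scaling, wild type was the highest array for 2 of them, CML23 and CML38. CML30, CML41 and CML43 stayed within 2-fold of wild type in all 3 mutants. Over all tested probe sets, 9.22% were at least 2-fold lower in 1 or more mutants and 24.9% were below wild type in all 3 by any amount. The comparisons share the 1 wild-type array and each mutant has 1 array, so no difference between 1 mutant and wild type has a replicate check.

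**Figure D1:**
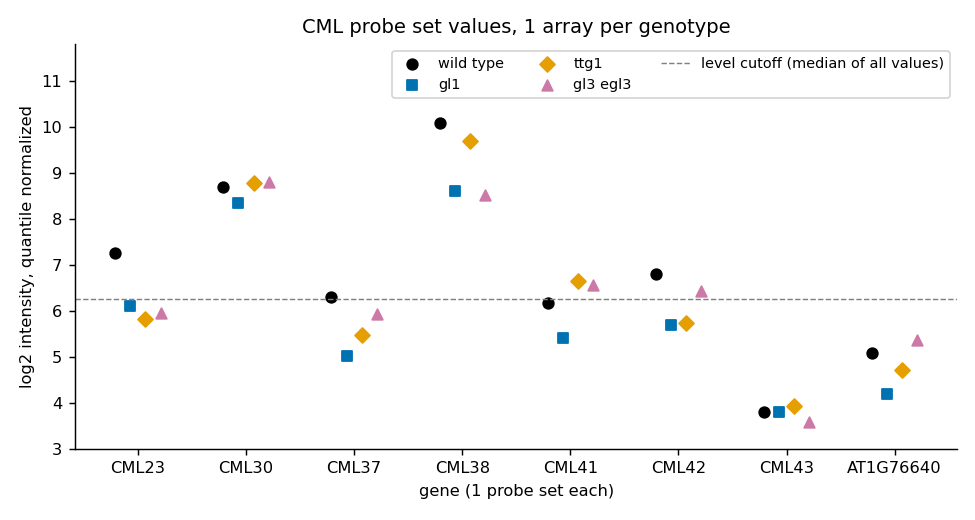
Log2 intensity (quantile normalized) of each CML probe set and of AT1G76640 in the 4 arrays, 1 point per genotype, with the level limit of 6.26 as a dashed line. Wild type is the highest point for CML23, CML37, CML38 and CML42, and CML43 and AT1G76640 lie below the limit in every array.

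CML23 was the gene with the most even difference from wild type. It encodes a close relative of the touch-induced sensor TCH2 (CML24), and the pair is known to act on flowering time and on nitric oxide levels. Its value was 7.25 in wild type, 6.11 in gl1, 5.96 in gl3 egl3 and 5.82 in ttg1. The 3 mutants lay close together, within 0.29 of one another, and wild type stood 1.14 above the nearest of them. The differences correspond to 2.20-fold lower in gl1, 2.69-fold in ttg1 and 2.45-fold in gl3 egl3. CML23 was the only one of the 7 that was 2-fold lower in all 3 mutants, as were 0.516% of tested probe sets. Ranked by the smallest of the 3 differences, it was number 47 from the low end of 12601. CML23 was tested through its wild-type value alone, so that rank and share are not independent of the level filter. The mean difference was -1.29 ± 0.14 (log2, SD, n = 3 mutants), an SD that leaves out the error of the shared wild-type array. As deposited, without scaling between arrays, the differences were -0.74, -1.13 and -0.85 for gl1, ttg1 and gl3 egl3, and the gene was then 2-fold lower in ttg1 alone. In those unscaled values the mutants ran above wild type over tested probe sets by medians of 0.34, 0.29 and 0.30 for gl1, ttg1 and gl3 egl3, and with each array's median subtracted CML23 was again 2-fold lower in all 3.

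CML38 had the largest single differences of the 7 genes. It encodes a sensor whose transcript is part of the core response to low oxygen and is also induced by wounding. Its value was 10.08 in wild type, 8.60 in gl1, 8.52 in gl3 egl3 and 9.69 in ttg1. The ttg1 array was the nearest to wild type, at 0.38 below it (0.70 below with each array's median subtracted). The gl1 and gl3 egl3 arrays were lower and differed from each other by 0.08. CML38 was 2.78-fold below wild type in gl1 and 2.94-fold in gl3 egl3, against 1.30-fold in ttg1. In gl1, 72 of 12601 tested probe sets had a difference at least as low, and in gl3 egl3 319 had. The ttg1 value exceeded the gl3 egl3 value by 1.17, a difference whose cause was not tested. The deposited values gave the same order, with 9.99 in wild type, 8.71 in gl1, 8.54 in gl3 egl3 and 9.68 in ttg1. The mean over the mutants was -1.14 ± 0.66 (log2, SD, n = 3), and that SD reflects the ttg1 array.

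AT1G76640, the CML39 synonym, lies directly beside CML38 in the RefSeq gene order, with 0 genes between them. Its values were 5.09 in wild type, 4.20 in gl1, 5.37 in gl3 egl3 and 4.72 in ttg1, all below the level limit. Where CML38 was lowest in gl3 egl3, AT1G76640 was highest there, and both were low in gl1. RefSeq lists CML39 as a synonym of CML37 as well, so the name does not settle which gene is meant.

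CML37 encodes a sensor that is known to promote jasmonate-dependent defence against feeding insects. Its value was 6.30 in wild type, 5.01 in gl1, 5.93 in gl3 egl3 and 5.48 in ttg1. The arrays were spread in steps, with gl1 lowest and gl3 egl3 nearest to wild type. The difference was -1.29 in gl1 (2.45-fold lower), -0.82 in ttg1 and -0.37 in gl3 egl3. In the deposited values gl3 egl3 was at 6.11 and wild type at 5.97, so the direction in gl3 egl3 turned, while gl1 stayed lowest at 5.01. The mean difference was -0.83 ± 0.46 (log2, SD, n = 3).

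CML42 is the member with a known role in trichomes: it limits trichome branching and binds KIC, a calcium-binding partner of the kinesin-like protein that shapes trichome cells. It also restrains jasmonate-dependent defence. Its value was 6.79 in wild type, 5.70 in gl1, 6.44 in gl3 egl3 and 5.74 in ttg1. The gl1 and ttg1 arrays were low and nearly equal, and gl3 egl3 lay 0.70 above ttg1. The cause of that gap was not tested. CML42 was 2.13-fold below wild type in gl1 and 2.07-fold in ttg1, against 1.28-fold in gl3 egl3. As deposited, the differences were -0.68 and -0.72 in gl1 and ttg1 and 0.04 in gl3 egl3, and no mutant was 2-fold lower. Its mean difference was -0.83 ± 0.42 (log2, SD, n = 3).

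The other members showed no 2-fold difference from wild type in the quantile-normalized values. CML41, which encodes a protein of plasmodesmata that takes part in callose deposition during immunity, was at 6.16 in wild type, 5.42 in gl1, 6.56 in gl3 egl3 and 6.66 in ttg1. It was low in gl1 alone, by 0.74 from the next array, and slightly above wild type in the other mutants. CML30, whose product has been placed in mitochondria, was at 8.69, 8.34, 8.78 and 8.79 in wild type, gl1, ttg1 and gl3 egl3. All its values lay within 0.45, the narrowest spread of the tested members. CML43, linked to the hypersensitive response to bacteria, was at 3.81, 3.80, 3.94 and 3.58 in the same order. These lie far below the level limit; as deposited, its gl3 egl3 value of 4.37 was 1.01 above wild type, in an array whose lowest value, 3.50, was above the lowest wild-type value of 2.19.

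Set out by mutant, gl1 held the most low values. In gl1, 4 of the 7 genes were at least 2-fold lower (CML23, CML37, CML38 and CML42), as were 1.9% of tested probe sets. In ttg1, 2 were (CML23 and CML42), against 3.78%, and in gl3 egl3 2 were (CML23 and CML38), against 7.37%. None was 2-fold higher, where 0.968%, 1.79% and 6.63% of tested probe sets were. The median difference of the 7 genes was -1.09 in gl1, -0.35 in gl3 egl3 and -0.38 in ttg1. Over the 6 tested genes it was -1.12, -0.36 and -0.60 in that order, beside 0.01, 0.02 and 0.04 over tested probe sets. As deposited, the medians of the 7 were -0.68, 0.14 and -0.31, beside 0.32, 0.63 and 0.30 over all probe sets. The gl1 array was the lowest of the 4 for 4 genes, CML30, CML37, CML41 and CML42 (all but CML42 as deposited), and it was lowest at 21.5% of tested probe sets. In the deposited values 1 gene was 2-fold lower in each mutant, CML38 in gl1 and in gl3 egl3 and CML23 in ttg1. Without the level filter the counts were again 4, 2 and 2 in gl1, ttg1 and gl3 egl3, and with a filter on the mean of the 4 values they were 2, 1 and 2.

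**Figure D2:**
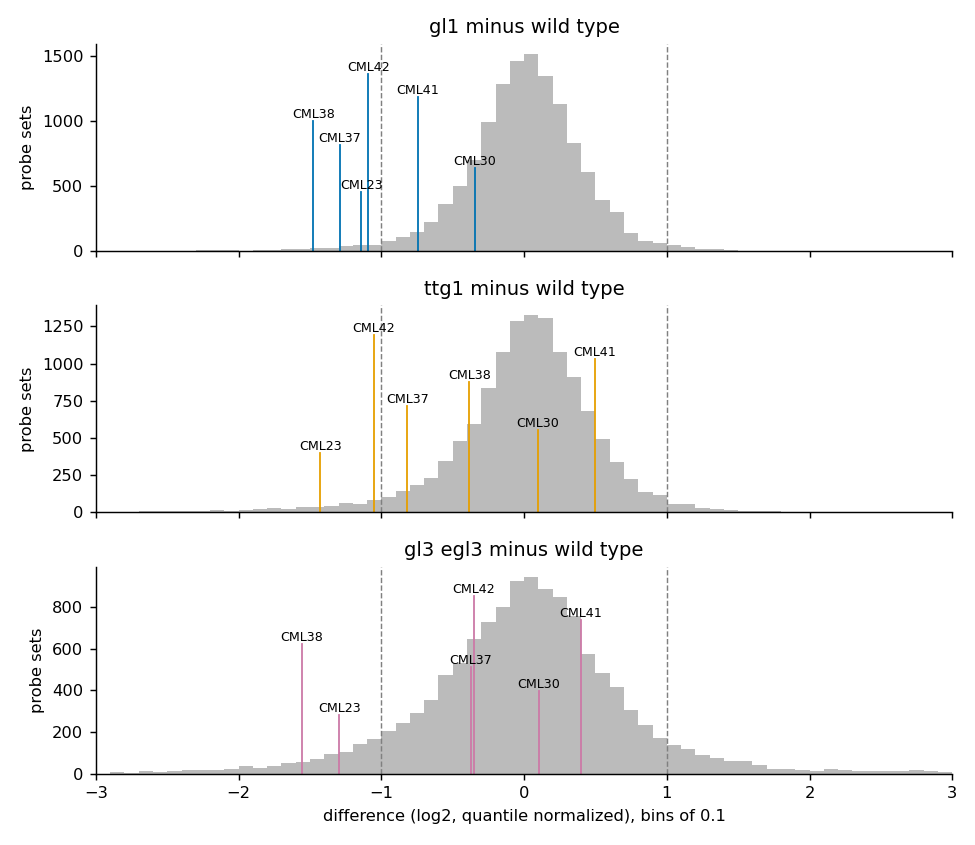
Number of tested probe sets by difference from wild type (log2, bins of 0.1) in gl1, ttg1 and gl3 egl3, with lines at the 6 tested CML genes (line heights only separate the names) and dashed lines at 2-fold. In gl1, 4 CML genes lie left of the 2-fold line at -1, and in ttg1 and gl3 egl3 2 do.

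**Figure D3:**
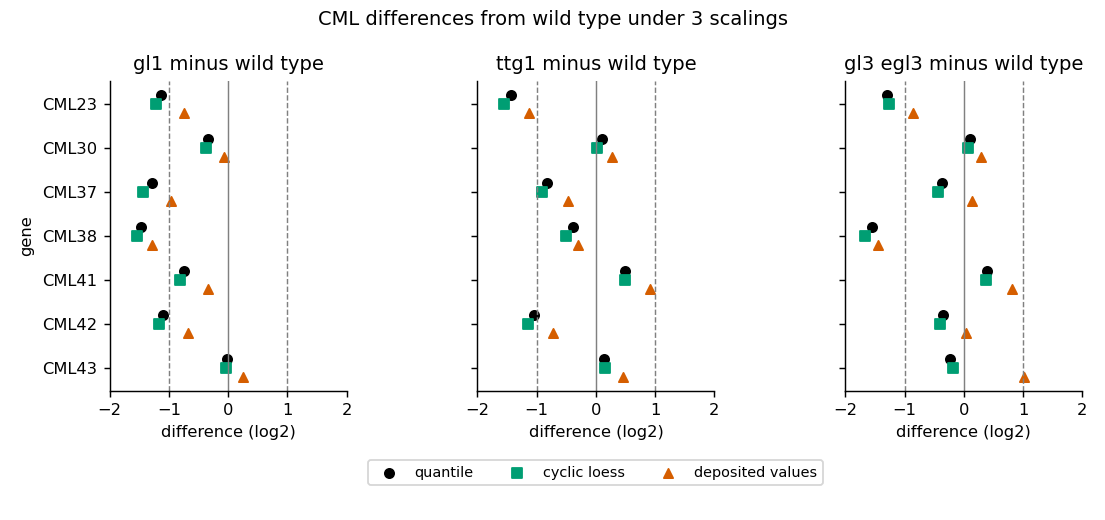
Difference of each mutant from wild type (log2) for the 7 CML genes after quantile normalization, after cyclic loess and in the deposited values, 1 point per scaling. The deposited points lie to the right of the others; CML38 stays beyond 2-fold lower in gl1 and gl3 egl3 under all 3 scalings, and CML23 does so in ttg1.

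No CML gene passed a test across all probe sets. With the 3 mutants as one class against wild type, limma with Benjamini-Hochberg adjustment called 0 of 12601 probe sets (0%), and 5.1% had an unadjusted p under 0.05. CML23 had the lowest p of the members, with a difference of -1.29 ± 0.24 (SE), lower in 3 of 3 mutants, an unadjusted limma p of 0.0038 and an adjusted p of 0.86. CML38, CML42 and CML37 had unadjusted limma p-values of 0.096, 0.086 and 0.10, each with an adjusted p of 0.86. The standard errors of their differences were 0.54, 0.38 and 0.41. CML30 differed by -0.05 ± 0.29 (SE) and CML41 by 0.05 ± 0.57. That fit assumes that the lone wild-type array varies like the mutants. All 3 mutant differences share that array. CML23 and CML37 were tested through their wild-type value alone, so their p-values are not independent of the level filter.

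The mutants in regulators of anthocyanin genes, ttg1 and gl3 egl3, were also fitted as a pair against gl1 and wild type. The labels name Landsberg erecta for this pair alone, so genotype class and accession cannot be told apart in this fit. Limma called 0.421% of tested probe sets, and no CML gene among them; 9.3% had an unadjusted p under 0.05, and CML41 was the 1 member that did. CML41 differed most, at 0.82 ± 0.30 (log2, SE) higher in ttg1 and gl3 egl3, where both arrays exceeded both of the others (limma unadjusted p = 0.035, adjusted p = 0.49). CML41 reached the level limit in ttg1 and gl3 egl3 alone, so its result in this fit is not independent of the level filter. CML23 differed by -0.79 ± 0.39 (SE; adjusted p = 0.63 by limma), with wild type high and gl1 near the pair. CML30, CML37, CML38 and CML42 differed by 0.27, 0.05, -0.23 and -0.16. For CML37, CML38 and CML42 the arrays inside each pair lay further apart than the pair means.

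The named genes whose values varied most like those of CML23, CML37 and CML38 were found by the Euclidean distance between mean-centred log2 values over the 4 arrays, among 6750 other genes. With 4 points from shared arrays these are descriptions, and the likeness of a nearest gene follows from its choice by distance. Nearest to CML38 were UGT73B4 (distance 0.08 log2 units) and UGT76B1 (0.21), both genes of glucosyltransferases, and then AT4G13180, AT2G41640 and AT1G19380 at up to 0.30. UGT73B4 was at 9.27 in wild type, 7.77 in gl1, 7.73 in gl3 egl3 and 8.80 in ttg1, with ttg1 the mutant nearest to wild type as for CML38. All 5 stayed the nearest 5 under cyclic loess, under median subtraction and as deposited.

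Nearest to CML37 were BZIP60 (0.09), a transcription factor gene of the response to unfolded proteins, and nad5 (0.10), a gene of a mitochondrial respiratory subunit, followed by ATCES1, AT3G23170 and AT5G28630 at up to 0.20. BZIP60 was at 10.09 in wild type, 8.85 in gl1, 9.67 in gl3 egl3 and 9.32 in ttg1, in steps like those of CML37. In the deposited values 1 of these 5 stayed among the nearest 5, after median subtraction 1 did, and with cyclic loess all 5 did. Nearest to CML23 were AT5G51440 (0.13), AT5G64110, AT4G15700, AT1G23100 and AT1G74450, at up to 0.20. Of these, 1 stayed in the deposited values, 1 after median subtraction and 2 with cyclic loess. None of these 3 CML genes was among the 5 nearest to another of them: CML37 ranked 721 and CML38 ranked 2256 among the genes near CML23, and CML38 ranked 4224 among those near CML37.

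**Figure D4:**
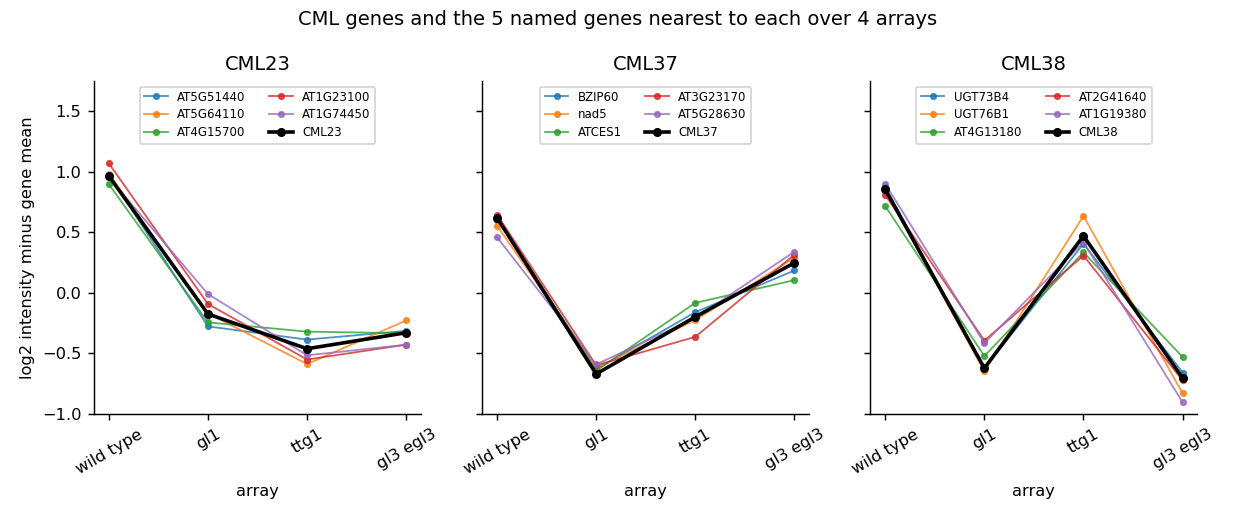
Log2 intensity minus each gene's mean over the 4 arrays for CML23, CML37 and CML38 (black) and the 5 named genes nearest to each; lines join the arrays of 1 gene and imply no order of genotypes. CML23 is high in wild type alone, CML37 is lowest in gl1, and CML38 is high in wild type and ttg1.

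Of 8 lists of other calcium genes, 7 have no member named by a probe set alone here: calmodulins, calcium-dependent kinases, CBL sensors, their CIPK kinases, pumps and exchangers, annexins and CAMTA factors. For CAMTA factors the search found no RefSeq symbol of that form, so none was looked up. Of 22746 probe sets, 8730 have no gene listed in the annotation used. A list without a named member therefore does not show that the array lacks its genes. The channel list has 7 named members, all glutamate receptor-like (GLR) genes. GLR3.3 and GLR3.6 encode channels known to carry wound signals from leaf to leaf. GLR3.3 was at 5.51 in wild type, 5.86 in gl1, 5.06 in gl3 egl3 and 5.98 in ttg1. GLR3.6 was at 5.47, 5.73, 4.90 and 5.60 in the same order, so both were lowest in gl3 egl3 after quantile normalization.

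By the size of the mean difference the rule named GLR2.9, GLR1.4 and GLR2.8, at 0.25 ± 0.58, -0.22 ± 0.47 and 0.22 ± 0.25 (log2, SD, n = 3 mutants). Without gl3 egl3 these means were -0.08, 0.03 and 0.10, and as deposited they were 0.78, 0.46 and 0.80. After quantile normalization no GLR gene differed by 2-fold from wild type in any mutant, and the GLR differences ran from -0.73 to 0.91. As deposited, GLR3.5 was 1.08 higher in gl1, and GLR2.8 and GLR2.9 were 1.70 and 1.89 higher in gl3 egl3 (1.24 and 1.44 with each array's median subtracted). Of the 7, GLR2.7 and GLR3.5 reached the level limit, and limma called neither (adjusted p = 0.90 and 0.94). As deposited, 6 of the 7 GLR values in gl3 egl3 and all 7 in gl1 and in ttg1 were above wild type, where the median over all probe sets was above wild type too.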

How the data were processed

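The authors deposited log2 intensities, made with RMA per the submitters' processing notes, with 1 value for each probe set of an array. Version, settings and genome build are not given in the sources used. RNA was amplified from 25 ng of total RNA, per the labels' protocols. The distributions of the columns differed (wild type had a median of 5.93, the mutants 6.33 to 6.40), so they were quantile normalized with limma 3.58.1 in R 4.3.3. Only the wild-type column consists of multiples of 0.005 (to within 1e-06) throughout, so that column may be 1 array or a mean of 2. Of 22810 probe sets, 64 controls were left out; 13513 of the rest name 1 gene, of which 13436 were matched by Entrez number to RefSeq (TAIR10.1), and 503 that name several were not named. All 7 CML genes matched.

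Limma's lmFit and eBayes were fitted to all 12601 tested probe sets, called at an adjusted p under 0.05, and tested on simulated data. Single mutants were compared by size (2-fold) without a p-value. Nothing says which samples were grown apart. The p-values rest on the spread among samples of different genotypes fitted as one class. That spread holds genotype differences and may also be technical. Each genotype has 1 array, so no p-value measures replicate variation, and the number of arrays limits the precision. Named were all CML genes, genes with a CML synonym, up to 3 members of each calcium list with the largest mean difference, and the 5 genes nearest to CML23, CML37 and CML38. The members and lists were chosen with earlier results of these data known. Alternatives were the deposited values, cyclic loess, median subtraction, no filter, a filter on the mean, and leaving out arrays.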

Additional observations from a re-analysis of the deposited data

Results flagged for a closer look

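After quantile normalization the mutants lay on both sides of wild type in 3 of the CML genes. That difference was not tested, since each genotype has 1 array. Of tested probe sets, 24.9% were below wild type in all 3 mutants. The share with mutants on both sides was not counted, so the count of 3 genes has no share to stand beside. The distance between the highest and the lowest mutant was 1.24 (log2) for CML41, with gl1 below and ttg1 and gl3 egl3 above wild type. It was 0.45 for CML30, with the same sides, and 0.36 for CML43, with ttg1 above and gl1 and gl3 egl3 below. The CML43 values are below the level limit. Which genes these were depended on the scaling. As deposited, CML43 was above wild type in all 3 mutants, while CML37 and CML42 had gl3 egl3 above and the other mutants below. With each array's median subtracted, CML30 was below wild type in all 3 mutants.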

How the results depend on the processing

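CML23, CML37, CML38 and CML42 kept a mean difference below 0 under each of the 6 scalings and left-out mutants tried, at -1.36 to -0.91, -1.05 to -0.43, -1.52 to -0.93 and -1.07 to -0.45. Leaving out a mutant could not turn the sign in these genes, since every mutant was below wild type after quantile normalization. The shared wild-type array was part of every one of these settings. The means of CML30, CML41 and CML43 lay on either side of 0. No alternative led limma to call a tested CML gene; the lowest adjusted p was 0.35 for CML23 in the fit of the mutants against wild type and 0.23 for CML41 in the fit of ttg1 and gl3 egl3 as a pair. That first fit called 0 probe sets under each alternative.

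The count of CML genes 2-fold lower in every mutant was 0 in the deposited values and 1 to 2 with a mutant left out (2 without ttg1, with CML38, and 2 without gl3 egl3, with CML42). In the deposited values 1 gene was 2-fold lower in each of gl1, ttg1 and gl3 egl3. With the filter on the mean, 2 were in gl1 and 1 in ttg1, since CML37 and CML42 then fail the filter. The fit of the pair called 89 lower and 47 higher probe sets in the deposited values, 91 and 13 with cyclic loess, 119 and 18 after median subtraction, 0 and 0 without a filter, and 3 higher with the filter on the mean, against 48 and 5. With an array left out it called 0 to 349 lower and 0 to 358 higher: none without wild type or gl1, and the highest counts without ttg1. Their cause was not tested. Each CML gene has 1 probe set, so averaging probe sets could not change a value. No paired analysis was possible because each genotype has 1 array.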
